A study of Mus musculus with 4 samples.

Results

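Complex I (NADH:ubiquinone oxidoreductase) was followed through the nuclear genes for its subunits and assembly factors in late 2C mouse embryos. The members were the rows of the count table whose symbol began with *Ndufa*, *Ndufb*, *Ndufc*, *Ndufs*, *Ndufv*, *Ndufaf* or *Ndufab* followed by a number. This gave 47 of 26022 genes: 35 subunits of complex I, 8 assembly factors, 3 copies named after a subunit (*Ndufb11b*, *Ndufs6b* and *Ndufb4c*) and *Ndufa4l2*, which is named as a subunit but is related to a subunit of complex IV. *Ndufs3*, *Ndufa3* and *Ndufa4* were not analysed here.

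The embryos were of the ICR strain, from superovulated ICR females mated to ICR males, and 4 libraries were made, 2 from control embryos and 2 from embryos given Mdivi-1. Zygotes were cultured in KSOM medium without or with 200 μM Mdivi-1, and 8 to 10 embryos per group were collected after 16 h, so that each library is a pool of whole embryos. Mdivi-1 is a small molecule used as an inhibitor of DRP1, the GTPase that divides mitochondria, and it has also been reported to inhibit complex I itself. Enzyme activity and protein were not measured in these libraries, the vehicle given to the control embryos is not stated, and the sources do not say whether replicates were separate litters, so p-values measure the spread between these libraries, which may be technical.

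Complex I is the entry point of electrons from NADH into the respiratory chain. Its peripheral arm in the matrix oxidises NADH and passes the electrons over a chain of iron-sulfur clusters to ubiquinone, and its membrane arm pumps protons. The core subunits carry out this chemistry, the accessory subunits surround and stabilise them, and assembly factors build the modules but leave the finished enzyme. The membrane arm core is encoded by mitochondrial DNA, so the enzyme needs transcripts from both genomes, and in the cleavage-stage embryo the mitochondria are those supplied by the oocyte.

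The libraries held 17712075 to 20077326 counts and 14793 to 16311 genes with at least 1 count. All 9 late 2C markers on the list used (the *Zscan4* genes, *Zfp352* and others) were detected. At an adjusted p under 0.05, DESeq2 called 2 of them lower and 4 higher in Mdivi-1-treated embryos, against 2.75% and 3.23% of all genes. By edgeR's quasi-likelihood test 0 of the 9 had an adjusted p under 0.05. Summed levels of 9 oocyte-supplied transcripts, in TMM-normalized CPM (counts scaled to a common library size), were 1538 and 3132 in the control libraries and 3522 and 4560 in the Mdivi-1 libraries. *Oosp1* made up most of these sums. The other 8 transcripts summed to 582 and 764 CPM in the control libraries and 1121 and 1362 CPM with Mdivi-1. *Bmp15* alone gave 662 and 975 CPM of these Mdivi-1 sums, against 184 and 273 CPM of the control sums. The difference without *Oosp1* thus rested largely on *Bmp15*. Log2 fold changes were negative for 3 of the 9 and positive for 6. Both Mdivi-1 libraries were above both controls for 3 of them and below for 1. Of 10 cumulus and granulosa markers, 4 were at 0 in every library, and their sum was 7.78 to 18.8 CPM. Sums over oviduct (5 markers, 2 at 0 throughout), sperm (5, 1 at 0) and fibroblast (6, 3 at 0) markers stayed at or below 7.83 CPM, and those over 6 blood markers (2 at 0) were 51.0 to 63.1 CPM. Control replicate 2 stood apart, with the fewest genes detected, a normalization factor of 0.834 against 1.04 to 1.10 in the others, and the highest shares of mitochondrial (18.8%) and cytosolic ribosomal protein (4.56%) counts. The part of these differences in the results below was not tested.

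Of the 47 members, 45 passed the filter on low counts. *Ndufa4l2* had no count in any library, and *Ndufb4c*, a processed pseudogene, had 0 and 1 counts in the controls and 1 and 0 with Mdivi-1. *Ndufv1* was tested although its counts were 65 and 2 in the controls and 28 and 4 with Mdivi-1. Levels were compared between genes only per kilobase of annotated exon. In the controls they ran from 0.586 CPM per kb for *Ndufv1* to 1160 CPM per kb for *Ndufa2*, with a median of 15.0, and the median with Mdivi-1 was 12.1 CPM per kb. After *Ndufa2*, an accessory subunit with a thioredoxin-like fold, came *Ndufb6* (340 CPM per kb), *Ndufa1* (294) and *Ndufa11* (125), all accessory subunits of the membrane arm. *Ndufv1*, *Ndufa10* (1.40) and *Ndufb4* (1.495) had the lowest levels, so subunits that are needed together in the enzyme differed widely in transcript level per length. Annotated exons include rare isoforms, which lowers the level per kb of genes such as *Ndufs1* and *Ndufab1*, whose merged exons span 8086 and 6883 bp. Reads shared with a copy elsewhere were not counted, which can lower genes with copies, such as *Ndufb4*.

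More complex I genes were lower than higher in Mdivi-1-treated embryos, and none passed the main test. In edgeR's quasi-likelihood test, 0 of 14259 genes (0%) had an adjusted p under 0.05, members included, and the smallest adjusted p was 0.109 over all genes and 0.151 among the members. Of the 45 members, 37 (82.2%) had a negative log2 fold change, against 48.7% of all genes tested. The median log2 fold change was −0.41 for the members and 0.03 for all genes tested. At an unadjusted p under 0.05 by edgeR, 11 members (24.4%) were lower and 2 were higher, against 7.64% and 8.27% of all genes. DESeq2 called 5 members (11.1%) lower, *Ndufs1*, *Ndufaf1*, *Ndufa8*, *Ndufs8* and *Ndufb7*, and 1 higher, *Ndufaf4*, at an adjusted p under 0.05, against 2.75% and 3.23% of all genes. In 18 members (40.0%) both Mdivi-1 libraries were below both controls, in 4 both were above and in 23 the groups overlapped, while 23.9% of all genes were below and 26.1% above. For 32 of the 45 members the 95% interval of the fold change included 0. Each library is a pool of whole embryos, so levels per cell are not known, and all values are relative to the rest of each library. The paper reports delayed development with Mdivi-1 in longer culture, and a difference in stage between the groups was not tested.

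**Figure D1:**
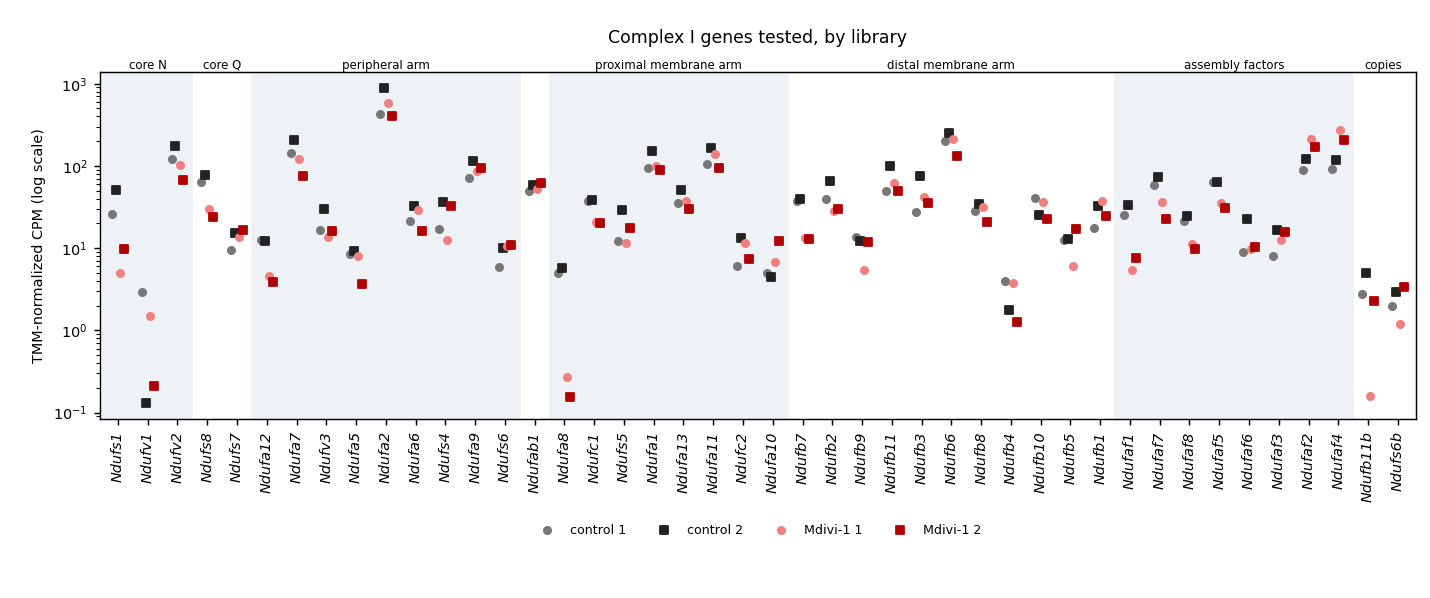
TMM-normalized CPM (log axis) of 44 of the 45 complex I genes tested, 1 point per library, grouped by role (core N, the NADH-oxidising module; core Q, the quinone module; unlabelled, *Ndufab1*) and ordered by fold change within a role. Both Mdivi-1 points lie below both control points in 17 of the genes drawn and above them in 4, such as *Ndufaf4*.

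The size of the difference depended on single libraries of both groups. Control replicate 2 was the highest of the 4 libraries in 30 of the 45 members, and Mdivi-1 replicate 2 was the lowest in 22. Control replicate 2 exceeded control replicate 1 in 38 members, by a median of 0.54 on the log2 scale, which is larger than the median difference between the groups. Summed over all members, the level was 2248 and 3570 CPM in the control libraries and 2573 and 2043 CPM with Mdivi-1. *Ndufa2* made up 19.0% to 25.2% of these sums, and without it they were 1820 and 2671 CPM in the control libraries and 1998 and 1635 CPM with Mdivi-1. The groups overlapped in both sums. Without control replicate 2 the median log2 fold change of the members was −0.16 (all genes 0.08), and without control replicate 1 it was −0.70 (all genes 0.21). Without Mdivi-1 replicate 1 it was −0.60 (all genes −0.04), and without Mdivi-1 replicate 2 it was −0.32 (all genes −0.07).

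**Figure D2:**
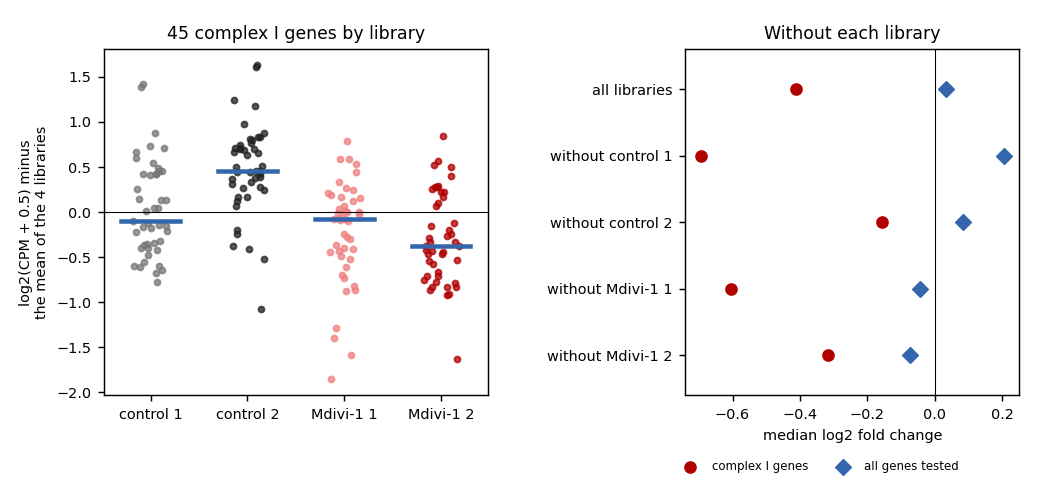
Left, log2(CPM + 0.5) of each of the 45 complex I genes minus its mean over the 4 libraries, by library, with the median as a bar; right, the median log2 fold change of complex I genes (circles) and of all genes tested (diamonds) with all libraries and without each one. The median is highest in control replicate 2 (0.45) and lowest in Mdivi-1 replicate 2 (−0.38), and the median fold change lies between −0.70 and −0.16 when 1 library is left out.

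The promoters of the members that DESeq2 called are shown because these genes carry the clearest differences. RefSeq windows on GRCm38.p6 were read from 250 bases before to 50 after a transcript's start, and 40 windows were found for 38 member genes, with none for *Ndufs1*. The sequences run 5′ to 3′ from 250 bases before the start to 30 bases after it. Capitals mark matches on either strand to the motifs of NRF1 (core GCATGCGC), ETS factors (CCGGAAG), YY1 (core AANATGGC) and the GC box (GGGCGG).
Ndufs8, chr19:3912745-3913024, minus strand: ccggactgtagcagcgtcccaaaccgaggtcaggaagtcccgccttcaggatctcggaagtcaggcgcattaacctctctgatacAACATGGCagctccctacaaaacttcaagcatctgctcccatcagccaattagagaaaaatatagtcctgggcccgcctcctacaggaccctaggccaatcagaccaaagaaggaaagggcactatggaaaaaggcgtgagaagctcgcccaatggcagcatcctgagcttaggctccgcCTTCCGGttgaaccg
Ndufa8, chr2:36049309-36049588, minus strand: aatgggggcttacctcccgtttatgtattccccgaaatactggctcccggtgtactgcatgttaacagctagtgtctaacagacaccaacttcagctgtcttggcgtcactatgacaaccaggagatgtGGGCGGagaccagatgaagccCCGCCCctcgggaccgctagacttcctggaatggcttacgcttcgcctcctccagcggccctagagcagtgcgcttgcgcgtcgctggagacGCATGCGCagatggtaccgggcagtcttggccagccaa
Ndufb7, chr8:83566508-83566787, plus strand: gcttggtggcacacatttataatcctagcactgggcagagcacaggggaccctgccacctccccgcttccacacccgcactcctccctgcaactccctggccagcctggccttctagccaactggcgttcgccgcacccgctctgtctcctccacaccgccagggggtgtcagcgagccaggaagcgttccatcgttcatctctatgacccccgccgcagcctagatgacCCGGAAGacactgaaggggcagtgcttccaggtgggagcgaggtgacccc
Ndufaf1, chr2:119662805-119663084, minus strand: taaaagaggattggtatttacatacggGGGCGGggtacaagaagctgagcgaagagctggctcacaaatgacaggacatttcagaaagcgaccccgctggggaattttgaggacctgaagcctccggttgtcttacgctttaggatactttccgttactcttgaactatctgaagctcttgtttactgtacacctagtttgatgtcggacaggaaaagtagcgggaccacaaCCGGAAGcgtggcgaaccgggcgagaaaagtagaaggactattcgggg
Ndufaf4, chr4:24897833-24898112, plus strand: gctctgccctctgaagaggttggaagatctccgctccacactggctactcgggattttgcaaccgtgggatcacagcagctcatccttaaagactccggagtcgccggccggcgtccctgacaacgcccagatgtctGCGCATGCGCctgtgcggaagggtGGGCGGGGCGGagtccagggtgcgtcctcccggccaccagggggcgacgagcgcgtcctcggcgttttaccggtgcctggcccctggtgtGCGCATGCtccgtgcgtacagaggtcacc
Positions are counted from the RefSeq start. An NRF1 core ended 1 base before that start in *Ndufa8*. The GENCODE M21 spans of *Ndufa8* and *Ndufb7* begin further upstream, so this core and the ETS motif of *Ndufb7* lie inside those spans. In *Ndufaf4*, an NRF1 core lay at position 2 to 9, and another pair of cores on opposite strands overlapped between −113 and −104. Single ETS motifs lay at −18 to −12 in *Ndufaf1*, at −20 to −14 in *Ndufb7* and at 16 to 22 in *Ndufs8*, which also had a YY1 core at −165 to −158. Over all member windows, 5 of 40 (12.5%) held the NRF1 core against 2.7% of 32851 windows of all genes, 12.5% against 8.9% the ETS motif, 32.5% against 6.1% the YY1 core and 20 of 40 windows against 35.7% the GC box. The E-box (CACGTG) was in 7.5% of member windows and 7.2% of all, and TATAAA in 4 of 40 windows against 13.6%. Matches to the NRF1 core were thus present both in *Ndufa8*, which was lower with Mdivi-1, and in *Ndufaf4*, which was higher, and a match says nothing about binding. The windows of all genes were not limited to genes tested or matched for GC content. *Ndufa5* and *Ndufa7* each entered with overlapping windows. The motif shares are thus a description and were not tested.

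Among the core subunits of the NADH-oxidising module, *Ndufs1* had the largest difference. *Ndufs1* (ENSMUSG00000025968, chr1:63143596-63176833 on GRCm38, minus strand) encodes the largest subunit and holds several of the iron-sulfur clusters. Its level was 25.7 and 50.7 CPM in the control libraries and 4.99 and 9.64 CPM with Mdivi-1. Both Mdivi-1 libraries were far below both controls, with means of 38.2 ± 17.7 and 7.32 ± 3.29 CPM (SD, n = 2), a level 5.22-fold lower. The log2 fold change was −2.38 (SE 0.55, 95% interval −3.65 to −1.12), with an adjusted p of 0.155 by edgeR and 0.00311 by DESeq2. *Ndufv2*, which carries a cluster next to the flavin, was at 120 and 174 CPM in the controls and at 102 and 66.8 CPM with Mdivi-1. The groups did not overlap, and the log2 fold change was −0.80 (SE 0.35, unadjusted p = 0.0531 by edgeR). *Ndufv1*, which binds NADH and the flavin, was at 2.96 and 0.131 CPM in the controls and at 1.503 and 0.209 CPM with Mdivi-1. The first replicate of each group was higher than the second, and the interval of its log2 fold change, −5.38 to 3.67, covered the fold changes of all other members.

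The quinone module takes the electrons from the last clusters to ubiquinone. *Ndufs8* (ENSMUSG00000059734, chr19:3908863-3912774, minus strand), an iron-sulfur subunit whose promoter is printed above, was at 64.0 and 78.5 CPM in the controls and at 30.2 and 23.8 CPM with Mdivi-1. The group means were 71.2 ± 10.3 and 27.02 ± 4.52 CPM (SD, n = 2), a level 2.64-fold lower in the Mdivi-1 libraries. Its log2 fold change was −1.40 (SE 0.34, 95% interval −2.18 to −0.62), with an adjusted p of 0.166 by edgeR and 0.0176 by DESeq2. *Ndufs7*, carrier of the terminal cluster next to the ubiquinone site, was at 9.47 and 15.1 CPM in the controls and at 13.5 and 16.5 CPM with Mdivi-1. The groups overlapped, with a log2 fold change of 0.29 (SE 0.51). Of the 6 core subunits, 5 had negative values and 1 a positive value, and 4 were below both controls in both Mdivi-1 libraries. Over all genes tested, 48.7% had negative values and 23.9% were below both controls. These shares are also the comparison for the groups of subunits below.

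Of the 9 accessory subunits of the peripheral arm, 8 had negative values, with a median log2 fold change of −0.43, and only *Ndufa12* had an unadjusted p under 0.05. *Ndufa12* encodes a subunit that takes the place held during assembly by its paralog, the assembly factor *Ndufaf2*. Its level was 12.5 and 12.3 CPM in the control libraries and 4.62 and 3.91 CPM with Mdivi-1, so replicates lay close together and the groups apart. The log2 fold change was −1.54 (SE 0.61, unadjusted p = 0.0373, adjusted p = 0.28 by edgeR). *Ndufa7* (142 and 209 against 122 and 75.1 CPM, log2 fold change −0.83), *Ndufv3* (−0.63) and *Ndufa5* (−0.59) were also below both controls, at unadjusted p of 0.052, 0.219 and 0.425 by edgeR. The most abundant member, *Ndufa2*, was at 428 and 899 CPM in the controls and at 575 and 407 CPM with Mdivi-1. Control replicate 2 was high and the other libraries lay together, and the log2 fold change of −0.43 became 0.17 without that library. *Ndufa6*, *Ndufs4* (whose loss in mice is a model of Leigh syndrome) and *Ndufa9* overlapped between the groups, with log2 fold changes of −0.25, −0.24 and −0.03. *Ndufs6*, a zinc-binding subunit added late in assembly, was the one with a positive value, at 5.92 and 10.04 CPM in the control libraries and 10.7 and 11.1 CPM with Mdivi-1 (log2 fold change 0.45, SE 0.60, unadjusted p = 0.472 by edgeR).

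*Ndufab1*, the mitochondrial acyl carrier protein, which also serves fatty acid synthesis, was among the steadiest members. Its level was 49.8 and 58.4 CPM in the control libraries and 52.6 and 62.6 CPM with Mdivi-1. The libraries of the groups interleaved, and the log2 fold change of 0.09 had an interval of −0.64 to 0.82, so a difference of 2-fold or more in level lay outside it.

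In the proximal membrane arm, 7 of 8 subunits had negative values, with a median log2 fold change of −0.38. *Ndufa8* (ENSMUSG00000026895, chr2:36036326-36049406, minus strand), a subunit with paired disulfides on the intermembrane space side, had the largest fold change of all members and one of the lowest levels. Its raw counts were 108 and 87 in the controls and 5 and 3 with Mdivi-1, or 4.92 and 5.71 against 0.268 and 0.156 CPM. The mean level was 25.0-fold lower, and the log2 fold change was −4.60 (SE 1.31, 95% interval −7.65 to −1.56), so its size is known only roughly at this depth. The adjusted p was 0.196 by edgeR and 0.0162 by DESeq2. *Ndufc1*, a small single-span subunit, was at 37.5 and 38.5 CPM in the controls and at 21.0 and 20.1 CPM with Mdivi-1. The replicates agreed closely, and the log2 fold change was −0.89 (SE 0.36, unadjusted p = 0.0401, adjusted p = 0.285 by edgeR). *Ndufa10*, with a fold like that of nucleoside kinases, was at 4.96 and 4.396 CPM in the controls and at 6.71 and 12.1 CPM with Mdivi-1. Both Mdivi-1 libraries were higher, and the log2 fold change was 1.005 (SE 0.70, unadjusted p = 0.189 by edgeR). The other 5, *Ndufa1*, *Ndufa11*, *Ndufa13* (also known as GRIM-19), *Ndufc2* and *Ndufs5*, overlapped between the groups, with log2 fold changes of −0.38, −0.22, −0.37, −0.01 and −0.50.

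The distal membrane arm holds the *Ndufb* subunits, and 10 of 11 had negative values, with a median of −0.38. *Ndufb7* (ENSMUSG00000033938, chr8:83566671-83571626, plus strand), like *Ndufa8* a subunit with paired disulfides facing the intermembrane space, was at 37.1 and 39.7 CPM in the controls and at 13.4 and 12.8 CPM with Mdivi-1. The means of 38.4 ± 1.81 and 13.1 ± 0.422 CPM (SD, n = 2) were far apart compared with the replicates, and the level was 2.93-fold lower. Its log2 fold change was −1.55 (SE 0.38, 95% interval −2.43 to −0.67), with an adjusted p of 0.169 by edgeR and 0.0282 by DESeq2. *Ndufb2* was at 40.1 and 66.3 CPM in the controls and at 28.3 and 29.6 CPM with Mdivi-1. The controls were the higher pair but differed between themselves, and the log2 fold change was −0.88 (SE 0.38, unadjusted p = 0.0492, adjusted p = 0.312 by edgeR). *Ndufb9*, which belongs to the LYR proteins and binds the acyl carrier protein, was also below both controls, at 13.8 and 12.2 against 5.37 and 11.99 CPM, but its log2 fold change of −0.58 had an SE of 0.60. *Ndufb1* alone had a positive value, at 17.5 and 32.7 CPM in the control libraries and 36.9 and 24.8 CPM with Mdivi-1 (log2 fold change 0.30, SE 0.45). The remaining 7, *Ndufb3*, *Ndufb4*, *Ndufb5*, *Ndufb6*, *Ndufb8*, *Ndufb10* and *Ndufb11*, overlapped between the groups, with log2 fold changes from −0.41 for *Ndufb11* to −0.13 for *Ndufb5*.

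**Figure D3:**
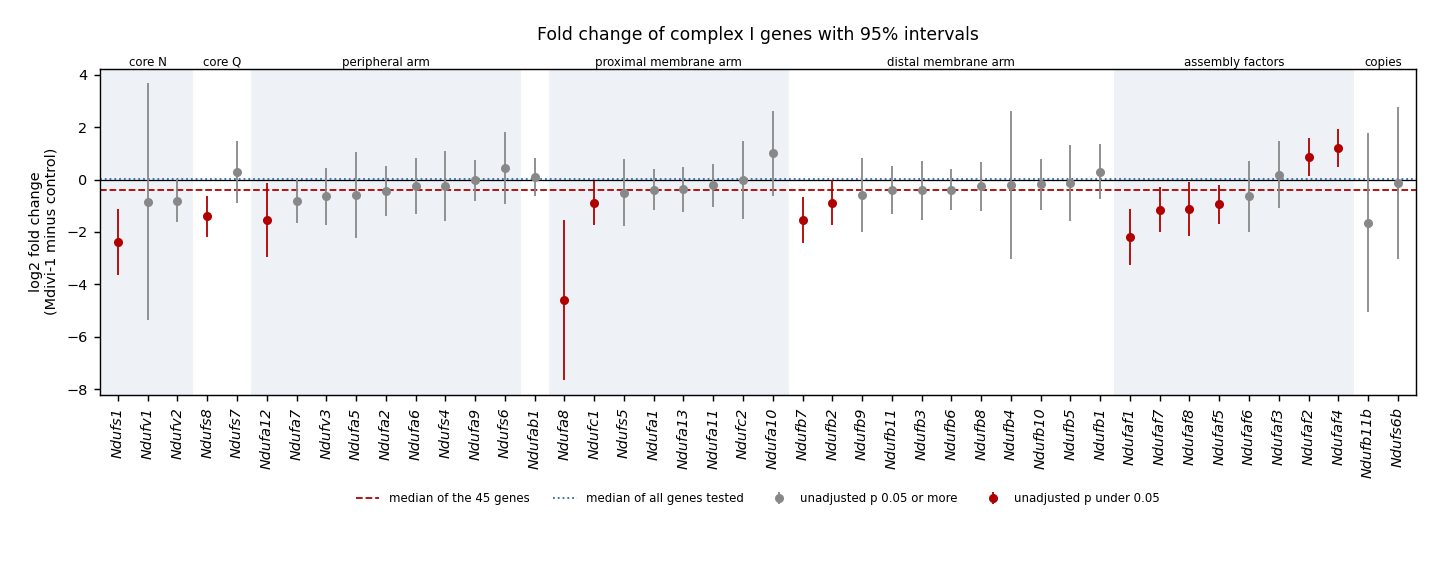
Log2 fold change (Mdivi-1 minus control) of 44 of the 45 complex I genes tested with 95% intervals from edgeR's quasi-likelihood fit, grouped by role; red marks an unadjusted p under 0.05, and lines mark the medians of all 45 and of all genes tested. The interval lies below 0 in 11 genes and above 0 in 2, the assembly factors *Ndufaf2* and *Ndufaf4*, and no gene has an adjusted p under 0.05 by edgeR.

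The assembly factors differed in direction. At an unadjusted p under 0.05 by edgeR, 4 of 8 were lower and 2 higher, against 7.64% and 8.27% of all genes tested. *Ndufaf1* (ENSMUSG00000027305, chr2:119655446-119662827, minus strand), which acts in the complex that assembles the membrane arm, was at 25.6 and 33.1 CPM in the controls and at 5.37 and 7.51 CPM with Mdivi-1. Its mean level was 29.4 ± 5.31 CPM in the controls and 6.44 ± 1.51 CPM with Mdivi-1 (SD, n = 2), which is 4.56-fold lower. The log2 fold change was −2.19 (SE 0.47, 95% interval −3.27 to −1.10), with an adjusted p of 0.151 by edgeR, the smallest among the members, and 0.00564 by DESeq2. *Ndufaf4* (ENSMUSG00000028261, chr4:24898083-24905001, plus strand), which takes part in building the quinone module, was at 92.1 and 119 CPM in the controls and at 274 and 209 CPM with Mdivi-1. Both Mdivi-1 libraries were above both controls, and the mean level of 242 ± 46.0 CPM (SD, n = 2) was 2.29-fold that of the controls. Its log2 fold change was 1.20 (SE 0.31, 95% interval 0.47 to 1.92), with an adjusted p of 0.176 by edgeR and 0.0147 by DESeq2.

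*Ndufaf3*, the partner of *Ndufaf4*, was at 8.01 and 16.8 CPM in the controls and at 12.7 and 15.6 CPM with Mdivi-1. The groups overlapped, and the log2 fold change was 0.19 (SE 0.55, 95% interval −1.09 to 1.47), an interval that also holds the value of *Ndufaf4*. *Ndufaf2*, the placeholder for *Ndufa12*, was at 87.97 and 122 CPM in the controls and at 212 and 170 CPM with Mdivi-1. Both Mdivi-1 libraries were higher, the reverse of *Ndufa12*, with a log2 fold change of 0.86 (SE 0.32, unadjusted p = 0.0267, adjusted p = 0.253 by edgeR). In GENCODE M21, 65.6% of its exon bases are shared with *B230220B15Rik* on the opposite strand, and reads of the pair cannot be told apart in libraries without strand.

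*Ndufaf5*, which hydroxylates an arginine of *Ndufs7*, was at 64.6 and 62.9 CPM in the controls and at 35.5 and 30.5 CPM with Mdivi-1. Its partner *Ndufaf8* was at 21.5 and 24.5 CPM in the controls and at 11.4 and 9.64 CPM with Mdivi-1. Both had separate groups and close replicates, with log2 fold changes of −0.95 (SE 0.32, unadjusted p = 0.0185 by edgeR) and −1.13 (SE 0.45, unadjusted p = 0.0359), and adjusted p of 0.231 and 0.275 by edgeR. *Ndufaf7*, a methyltransferase of the matrix, was at 58.3 and 73.2 CPM in the controls and at 36.6 and 22.6 CPM with Mdivi-1, with a log2 fold change of −1.15 (SE 0.37, unadjusted p = 0.0156, adjusted p = 0.218 by edgeR). *Ndufaf6*, an early factor, was at 8.97 and 22.5 CPM in the controls and at 9.82 and 10.4 CPM with Mdivi-1. Only control replicate 2 was high there, and the log2 fold change of −0.64 (SE 0.59) became 0.15 without it. Summed over the 8 factors, the level was 367 and 474 CPM in the control libraries and 597 and 476 CPM with Mdivi-1. Most of the Mdivi-1 sums came from *Ndufaf4* and *Ndufaf2*, so the sums do not describe the other factors. The median log2 fold change was −0.79 over the 8 factors (5 negative) and −0.41 over the 35 subunits (30 negative). The sum over the 35 subunits was 1876 and 3088 CPM in the control libraries and 1974 and 1561 CPM with Mdivi-1.

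The calls by DESeq2 depended on the libraries. Fewer members were called lower without control replicate 2 or without either Mdivi-1 replicate. Leaving out a library leaves 1 in its group, and calls over all genes tested also changed, but not in step with those of the members. The counts of members called are thus not read as particular to complex I. In the DESeq2 fits the median log2 fold change of the members was −0.73 (all genes 0.17) without control replicate 1. Without control replicate 2 it was −0.16 (all genes 0.09). It was −0.60 (all genes −0.04) without Mdivi-1 replicate 1 and −0.31 (all genes −0.06) without Mdivi-1 replicate 2. Leaving out 1 library at a time, the log2 fold change lay between −2.95 and −1.83 for *Ndufs1*, −2.47 and −1.97 for *Ndufaf1*, −1.58 and −1.26 for *Ndufs8*, −1.61 and −1.53 for *Ndufb7*, −5.03 and −4.29 for *Ndufa8* and 0.98 and 1.37 for *Ndufaf4*. Leaving out control replicate 2 turned the sign of 11 members. The 13 members with an unadjusted p under 0.05 were not among them, which their selection nearly fixes, since their groups do not overlap.

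The copies named after subunits were low. *Ndufb11b*, an intronless gene, was at 2.78 and 4.92 CPM in the controls and at 0.161 and 2.29 CPM with Mdivi-1 (log2 fold change −1.64, SE 1.47). *Ndufs6b*, a processed pseudogene, was at 2.002 and 2.89 CPM in the controls and at 1.18 and 3.34 CPM with Mdivi-1 (log2 fold change −0.11, SE 1.25). Only uniquely mapped reads were counted, so reads shared between a copy and its parent gene are lost to both. The values of the copies are thus uncertain. In GENCODE M21, 29 of the 47 members share no exon base with another gene, and 8 share more than 10% of theirs. Besides *Ndufaf2* these include *Ndufb6* (39.0%, with *Smim27*) and *Ndufa13* (30%, with *Tssk6*), both across strands. *Ndufb1* is typed there as a bidirectional promoter lncRNA and not as a coding gene.

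The rest of the complex I pathway and the other respiratory complexes were read from lists. Subunits encoded by mitochondrial DNA did not separate the groups: all 7 *mt-Nd* genes overlapped, none had an unadjusted p under 0.05 by edgeR, and the median log2 fold change was −0.17. Their summed level was 37410 and 56880 CPM in the control libraries and 42650 and 40440 CPM with Mdivi-1. It was highest in control replicate 2, as was the sum over all genes tested. Of 12 assembly factors with other names, 8 had negative values (median −0.31), and *Timmdc1*, a membrane arm factor, was the only one with an unadjusted p under 0.05, at 86.0 and 64.0 CPM in the control libraries and 26.9 and 40.0 CPM with Mdivi-1 (log2 fold change −1.16, SE 0.36, adjusted p = 0.212 by edgeR). Of 13 genes for iron-sulfur cluster assembly, which supplies the clusters of the core subunits, 2 were lower and 2 higher at that level (median 0.05). Over all genes tested, 7.64% were lower and 8.27% higher at that level. *Lyrm4* (log2 fold change 1.11) and *Isca1* (1.59) were the higher pair, with adjusted p of 0.24 and 0.274 by edgeR.

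Complexes III, IV and V had medians close to that of complex I. The counts below stand beside 7.64% of all genes lower and 8.27% higher at an unadjusted p under 0.05 by edgeR. The median log2 fold change was −0.46 over 9 genes of complex III (3 lower and 0 higher at an unadjusted p under 0.05 by edgeR), −0.57 over 10 of complex IV (3 lower and 1 higher, the supercomplex factor *Cox7a2l*) and −0.42 over 14 of complex V (3 lower, 0 higher). *Cox7c* of complex IV (126 and 146 against 48.5 and 65.3 CPM, log2 fold change −1.26) was the one called by DESeq2 among them, with an adjusted p of 0.0138 against 0.17 by edgeR. The complex II list holds subunits and assembly factors, unlike those of complexes III and V. Its 4 subunits, *Sdha* to *Sdhd*, had 2 negative and 2 positive values, with a median of −0.22. Its 4 assembly factors all had positive values, from 0.62 to 2.44, with *Sdhaf2* (2.44) and *Sdhaf4* (1.13) at unadjusted p of 0.0221 and 0.0241 by edgeR. All 11 tested regulators of transcription of respiratory chain genes had negative values (median −0.67), and 7 were below both controls in both Mdivi-1 libraries, beside 48.7% and 23.9% of all genes. *Polrmt*, the mitochondrial RNA polymerase, was at 14.1 CPM in both controls and at 2.52 and 3.44 CPM with Mdivi-1 (log2 fold change −2.24, SE 0.63, adjusted p = 0.193 by edgeR and 0.0478 by DESeq2). *Nrf1*, whose motif core was counted above, was at 68.1 and 52.9 CPM in the controls and at 29.6 and 27.4 CPM with Mdivi-1 (log2 fold change −1.09, SE 0.34, adjusted p = 0.213 by edgeR). Differences between these lists were not tested.

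**Figure D4:**
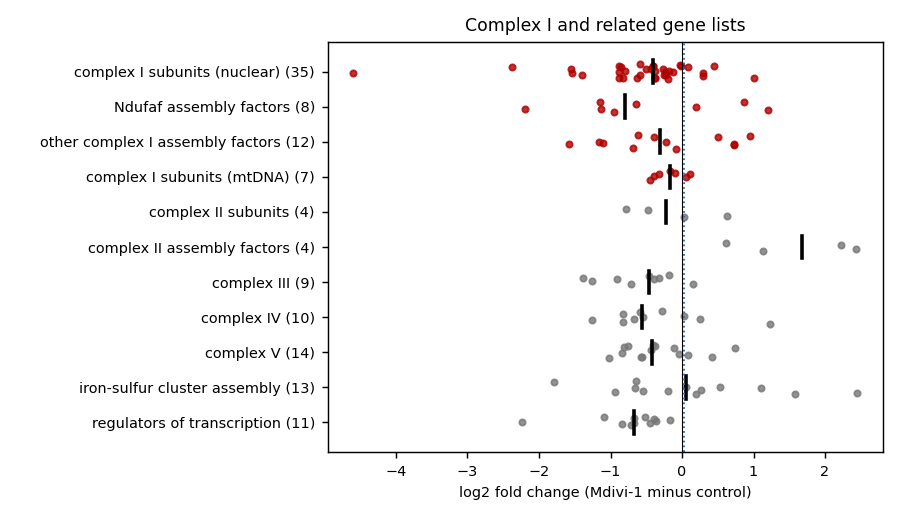
Log2 fold change (Mdivi-1 minus control) of single genes in complex I lists (red) and in other respiratory chain lists (grey), with the number tested in parentheses, the list median as a black bar and the median of all genes tested as a dotted line. Medians are below 0 for all lists shown but the assembly factors of complex II (1.67) and iron-sulfur cluster assembly (0.05), and single genes spread widely around them.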

How the data were processed

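Raw counts per gene in 2 control and 2 Mdivi-1 libraries were analysed. Per the labels and the study's methods, RNA was amplified by Smart-Seq2, which keeps no strand, and the authors trimmed reads with cutadapt 1.16 (quality 20, minimum length 20), mapped them with STAR and counted uniquely mapped reads in exons with GeneCounts; the processing notes name build mm10. The deposited table also holds the counts divided by size factors (a signal per gene), and the log2 fold changes, Wald score and p-values of the authors' DESeq2 comparison, none of which was used.

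From the counts, genes were kept by filterByExpr (minimum count 10) and tested, two-sided, with edgeR 4.0.16 in R 4.3.3 (TMM, glmQLFit and glmQLFTest, no covariates), with Benjamini-Hochberg adjustment over all 14259 genes at 0.05. DESeq2 1.42.0 and limma 3.58.1 (voom) were alternatives, as were other normalizations and filters, a replicate block, and leaving out each library. SEs were worked back from the fold change and its F statistic, and CPM use TMM-scaled library sizes. Scripts were tested on simulated data.

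Locations and exon lengths are from GENCODE M21 (GRCm38), in which 25995 of 26022 IDs were found; the authors name a later release. Values in every library are given for the core subunits, the assembly factors, members with an unadjusted p under 0.05 or a positive fold change and those at the low-count filter, with up to 3 genes of each pathway list by smallest p. *Ndufa2*, *Ndufa7* and *Ndufb9* were added after their values were seen, as was the split of the complex II list. A few genes are not reported here by name and enter counts, sums and medians only. The members and lists were chosen with earlier results of these data known. Replicates were not the same library (chi-square per degree of freedom 115 and 52.9).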

Additional observations from a re-analysis of the deposited data

How the results depend on the processing

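Against the 11 members lower at an unadjusted p under 0.05 by edgeR, library totals in place of TMM gave 6, the replicate block 7, and leaving out 1 library 5 to 14. Their median log2 fold change of −0.41 was −0.24 with library totals, where the median of all genes was 0.14 and the calls over all genes were 769 lower and 1287 higher (1089 and 1179 with TMM), and −0.70 to −0.16 without 1 library. The 18 members below both controls became 21 to 33 without 1 library, where fewer libraries have to be ordered. DESeq2 called 5 members lower with all libraries, and fewer without control replicate 2 or without either Mdivi-1 replicate, an alternative chosen after seeing the data. These DESeq2 fits leave 1 library in a group, so their counts are not given. With size factors, other filters, DESeq2, voom or the likelihood ratio test the count was 11 to 14 and the median −0.43 to −0.36. Adjusted calls over all genes were 0 by the main test, 819 without a filter (4 members lower, 1 higher), 853 by DESeq2 (5 lower, 1 higher), 870 by the likelihood ratio test (5 lower, 1 higher) and 202 by voom (0 members). Leaving out control replicate 1, 2, or Mdivi-1 replicate 1, 2, edgeR's main test gave 803 (4 members lower), 380, 0 and 4 calls, the last 3 with no member. Replicate numbers did not pair the libraries (correlation of their deviations 0.005), and the block left a median of −0.35.

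Of 540 single-gene values under alternatives, 36 had the other sign, in 19 genes. *Ndufa9* had 0.13 with library totals, 0.009 with the block and 0.024 by voom, *Ndufc2* 0.18, 0.058 and 0.13, and *Ndufs6b* 0.033 with library totals. Without 1 library the log2 fold changes ran from −0.34 to 0.32 for *Ndufa9*, −0.53 to 0.11 for *Ndufa11*, −0.88 to 0.17 for *Ndufa2*, −0.019 to 0.64 for *Ndufs7*, −1.11 to 0.38 for *Ndufs4*, −0.73 to 0.087 for *Ndufa6*, −1.20 to 0.49 for *Ndufb4*, −0.97 to 0.46 for *Ndufb3*, −1.09 to 0.43 for *Ndufb5*, −1.01 to 0.24 for *Ndufs5*, −0.47 to 0.63 for *Ndufc2*, −0.062 to 0.21 for *Ndufab1*, −0.83 to 0.14 for *Ndufb11*, −2.86 to 2.63 for *Ndufv1*, −0.56 to 0.19 for *Ndufb10*, −1.16 to 0.15 for *Ndufaf6*, −0.26 to 0.79 for *Ndufaf3*, −1.07 to 0.44 for *Ndufs6b* and −0.091 to 0.79 for *Ndufb1*. The causes were not tested. With 2 libraries a group, a biological coefficient of variation of 0.66 limits what can be told apart, and counts of *Ndufv1* and *Ndufa8* limit their fold changes.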
